A study of Mus musculus with 6 samples.

Results

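The 33 genes described here encode proteins that build and run the lysosome. They were listed by name for their role. The list uses no threshold on measured values, but it was drawn up with earlier results of these data known. They comprise 13 hydrolases, 3 soluble cofactors of the lysosomal lumen, 8 membrane proteins, 8 subunits or accessory proteins of the vacuolar proton pump (V-ATPase) and the transcription factor Tfeb. All 33 were on the array. Of these, 32 had a transcript cluster (the group of probes that reports a transcript) carrying their symbol alone, among 29458 such genes in the series. The remaining member, Glb1, shares its cluster with Tmppe, and its signal cannot be assigned to either gene.

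The arrays measured ribosome-associated mRNA from mice that express RPL10a, a ribosomal protein, fused to Flag and EGFP from the CD11b promoter, a promoter of the myeloid lineage to which microglia belong. Both groups carried this transgene. The 3 arrays of the stroke group came from mice taken 24 h after tMCAO (transient occlusion of the middle cerebral artery), in which a main artery of the brain is blocked and reopened, and the 3 control arrays came from sham-operated mice. Tagged ribosomes were captured by translating ribosome affinity purification (TRAP), and 100 ng of mRNA per sample was hybridised to MoGene-2_0-st arrays. Animals were 2 to 3 months old, with 6 mice per group. The labels call the 3 samples of a group biological replicates but do not state which mice went into each. They give the sex of the animals both as male only and as an equal mix.

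Lysosomes are acidic compartments that digest material taken up from outside the cell or delivered by autophagy. Hydrolases cut proteins, lipids and sugars there, the V-ATPase pumps in the protons that these enzymes need, and membrane proteins line the compartment or carry products out. TFEB is a transcription factor that switches on many of these genes together. In the brain, microglia and infiltrating macrophages are the cells best known for clearing debris through this route after ischaemia.

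Values are log2 signals. Medians of the 6 arrays over 41345 clusters lay between 5.23 and 5.35, and with 3 arrays a group the precision of each value is limited by their number. The arrays numbered 2 in both groups stood apart from the other 4 on the first principal component. Markers of cells other than the tagged ones gave signal as well: the mean over 10 neuron markers was 10.97 to 11.09 on stroke arrays and 10.94 to 11.12 on control arrays, above the array medians. For 16 microglia markers it was 7.40 to 7.63 on stroke arrays and 6.88 to 7.23 on control arrays. Unpurified RNA was not analysed here, so no signal below can be assigned to the tagged cells alone. More cells of a type and more mRNA per cell cannot be told apart in such samples.

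Of the 33 genes, 1 rose 24 h after tMCAO, 0 fell and 32 did not pass the test (limma, adjusted p under 0.05 over all genes). Over all genes 0.421% rose and 0.00339% fell. At an unadjusted p under 0.05 there were 5 of the 33, all higher in stroke (Cd68, Grn, Gusb, Laptm5 and Lamp2), where the shares of all genes were 3.69% higher and 2.07% lower. In the same 5 genes every stroke array lay above every control array, and in Arsb every stroke array lay below. This is 15.2% and 3.03% of the members, against 6.34% and 4.89% of all genes. The median log2 difference, stroke minus control, was 0.078 over the 33 genes and -0.011 over all genes. Leaving out both arrays numbered 2 gave 0.011 over the 33 genes and -0.011 over all genes. For 31 of the 33 the upper end of the 95% interval was below a 2-fold increase, the exceptions being Cd68 and Grn. With the replicate number as a block, again 1 member rose and 0 fell, where 0.519% of all genes rose and 0.0102% fell.

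**Figure D1:**
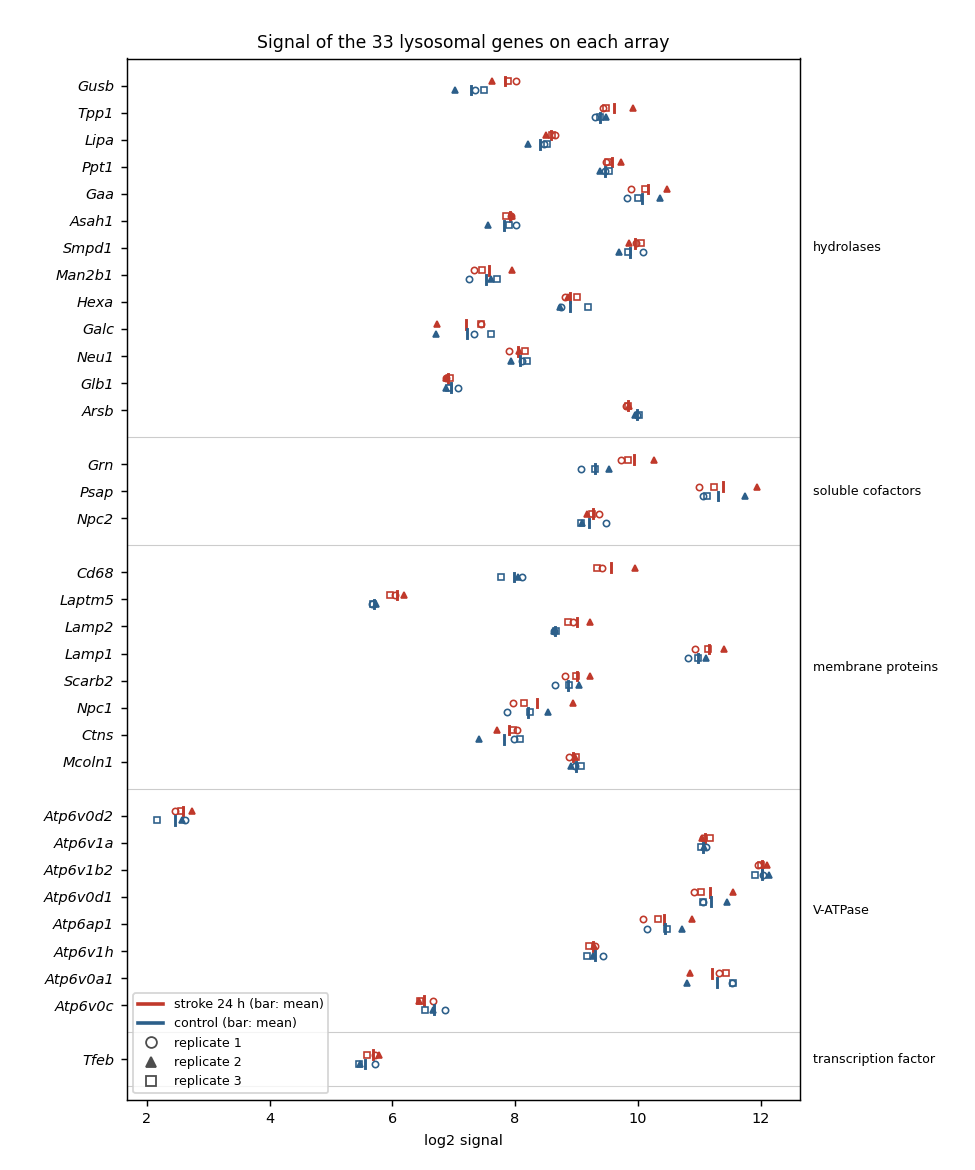
Log2 signal (x axis) of each of the 33 lysosomal genes (rows, grouped by role) on the 3 stroke arrays (red, upper line of each row) and the 3 control arrays (blue, lower line), with vertical bars at the group means. The red and blue symbols are clearly separated for Cd68, while they interleave for all 8 V-ATPase genes.

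The membrane proteins held the gene that rose. Cd68 encodes a heavily glycosylated member of the LAMP family that is abundant in the lysosomes of macrophages and microglia. It gave 9.42, 9.95 and 9.34 on the stroke arrays and 8.11, 8.04 and 7.77 on the control arrays. The lowest stroke array lay well above the highest control array. Its means of 9.57 ± 0.33 in stroke and 7.97 ± 0.18 in control (SD, n = 3 each) differ 3.02-fold, a log2 difference of 1.59 with a 95% interval of 1.15 to 2.04 (limma, adjusted p = 0.0193). In the authors' deposited table the group averages are 9.38 in stroke and 8.04 in control, which differ from these array means. The fold there is 2.53 and the false discovery rate 0.024. Without both arrays numbered 2 the log2 difference was 1.44 (adjusted p = 0.0399). The call was lost without stroke replicate 1 (adjusted p = 0.0768), stroke replicate 3 (0.0637), control replicate 1 (0.0958) or control replicate 3 (0.0812). It held without stroke replicate 2 (0.033) or control replicate 2 (0.042). The log2 difference stayed between 1.41 and 1.71 in all 6 such fits. The call was also lost without limma's moderation of the variance (adjusted p = 0.336). Cd68 lies on chromosome 11 at 69664213 to 69666170 (GRCm38.p6).

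Laptm5, a lysosomal membrane protein that controls receptor turnover, gave 6.05, 6.19 and 5.97 on stroke arrays and 5.67, 5.73 and 5.69 on control arrays. The groups did not overlap, yet the log2 difference of 0.37 (95% interval 0.076 to 0.67) did not pass (adjusted p = 0.65). Lamp2, a main structural protein of the lysosomal membrane that also serves as a receptor in chaperone-mediated autophagy, gave 8.95, 9.21 and 8.86 in stroke and 8.64, 8.63 and 8.67 in control. Its 3 control arrays were nearly level and all stroke arrays were above them, a log2 difference of 0.36 (95% interval 0.037 to 0.69, adjusted p = 0.787). The related Lamp1 averaged 11.16 ± 0.24 in stroke and 10.97 ± 0.15 in control, with overlapping arrays. Scarb2 (LIMP-2), the receptor that carries glucocerebrosidase to the lysosome, averaged 9.01 ± 0.21 and 8.86 ± 0.20 in stroke and control. Neither passed.

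The transporters and the channel did not pass. Npc1, which exports cholesterol from the lysosome, averaged 8.35 ± 0.52 in stroke and 8.22 ± 0.33 in control. Ctns, the cystine exporter, averaged 7.90 ± 0.17 in stroke and 7.82 ± 0.36 in control. Mcoln1, a calcium-permeable channel of the lysosomal membrane, averaged 8.95 ± 0.059 in stroke and 8.99 ± 0.078 in control, with a 95% interval of -0.33 to 0.25. Of the 8 membrane proteins, 1 passed, 7 did not, and 7 had a difference above 0. The class median was 0.17, or 0.14 without both arrays numbered 2. Without single arrays it was 0.12 to 0.31, the highest without stroke replicate 1.

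**Figure D2:**
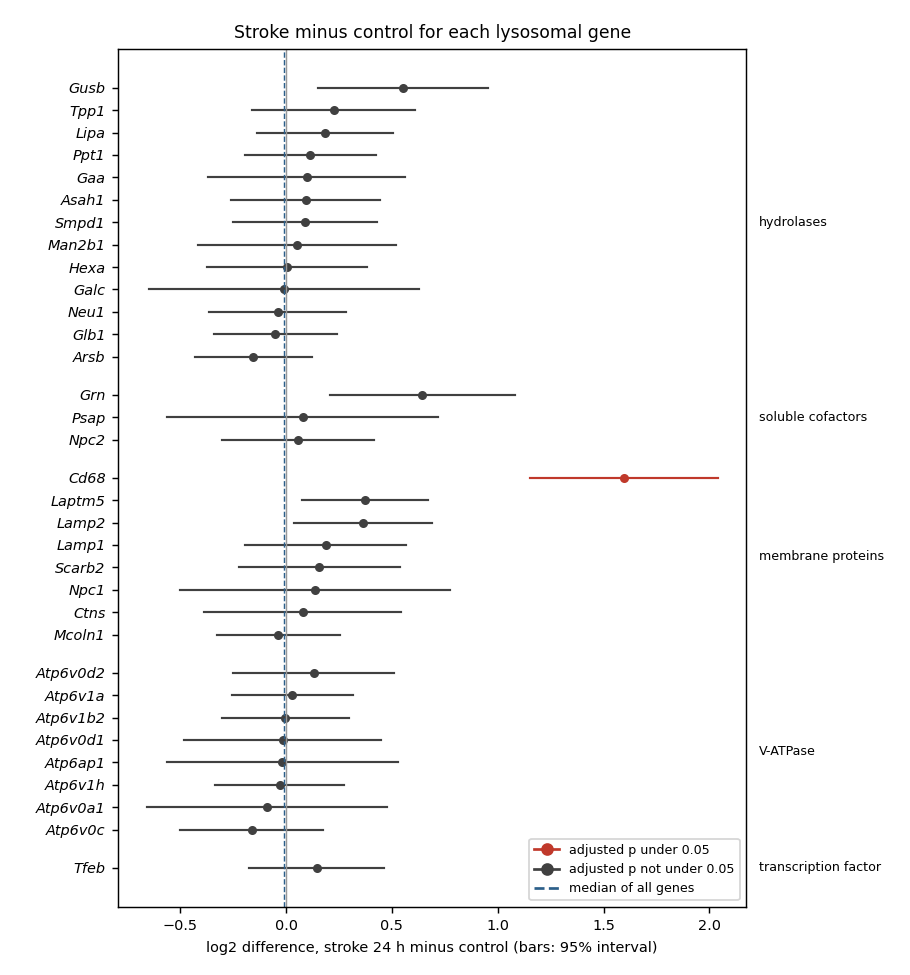
Log2 difference, stroke minus control (x axis), with its 95% interval from limma for each of the 33 genes (rows, grouped by role). The red point is Cd68 at 1.59, the gene with an adjusted p under 0.05, and the dashed line marks the median of all genes at -0.011.

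The promoter of Cd68 is shown because it belongs to the gene that rose, and that of Grn because Grn had the next largest difference. Those of Mcoln1 and Atp6v1a carry the E-box letters TCACGTG, as in the sites that TFEB binds, and both genes differed by less than 0.05 on the log2 scale. Windows run from 250 bases before to 50 after the start, 5′ to 3′ on the gene's strand, from RefSeq on GRCm38.p6. Capitals mark TCACGTG or its reverse complement CACGTGA, which overlap where the letters read TCACGTGA. They also mark the PU box GAGGAA or its reverse complement TTCCTC, the core letters that the myeloid factor PU.1 recognises. The windows are chr11:69666121-69666420 on the minus strand for Cd68, chr11:102430257-102430556 on the plus strand for Grn, chr8:3500269-3500568 on the plus strand for Mcoln1 and chr16:44139210-44139509 on the minus strand for Atp6v1a.
Cd68: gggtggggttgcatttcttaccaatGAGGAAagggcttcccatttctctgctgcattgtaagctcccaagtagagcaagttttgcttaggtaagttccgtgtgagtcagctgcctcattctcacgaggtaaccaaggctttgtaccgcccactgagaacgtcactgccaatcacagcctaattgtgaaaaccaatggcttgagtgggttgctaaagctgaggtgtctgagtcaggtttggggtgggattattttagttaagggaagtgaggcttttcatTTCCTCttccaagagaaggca
Grn: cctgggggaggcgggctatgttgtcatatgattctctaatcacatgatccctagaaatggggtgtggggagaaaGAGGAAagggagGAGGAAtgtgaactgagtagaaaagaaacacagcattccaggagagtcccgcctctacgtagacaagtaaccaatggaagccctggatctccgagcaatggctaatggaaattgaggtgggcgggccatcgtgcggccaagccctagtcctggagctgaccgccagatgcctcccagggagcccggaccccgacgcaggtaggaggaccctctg
Mcoln1: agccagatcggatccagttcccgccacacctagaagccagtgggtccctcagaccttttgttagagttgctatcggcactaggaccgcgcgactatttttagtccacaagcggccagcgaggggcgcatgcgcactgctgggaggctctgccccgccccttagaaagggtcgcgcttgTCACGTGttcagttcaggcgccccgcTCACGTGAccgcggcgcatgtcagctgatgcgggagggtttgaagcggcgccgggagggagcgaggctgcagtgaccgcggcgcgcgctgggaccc
Atp6v1a: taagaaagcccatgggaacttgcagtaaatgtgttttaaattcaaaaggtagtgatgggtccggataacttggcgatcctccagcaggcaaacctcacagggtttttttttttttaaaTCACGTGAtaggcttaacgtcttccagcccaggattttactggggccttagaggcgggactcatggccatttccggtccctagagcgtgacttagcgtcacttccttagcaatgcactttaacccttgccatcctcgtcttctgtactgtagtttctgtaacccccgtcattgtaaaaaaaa

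RefSeq gave 34 promoter windows for 28 of the 33 genes. TCACGTG was in 6 of the 34 windows (17.6%), on either strand, and in 3.77% of all 32851 windows of the same length. The 6 genes that hold it, Atp6v0d1, Atp6v1a, Gaa, Glb1, Lamp1 and Mcoln1, had log2 differences of -0.053 to 0.19 with a median of 0.0060, and none passed the test. GAGGAA was in 11 of the 34 windows (32.4%) and in 28.3% of all windows. The 11 genes that hold it were Atp6v0a1, Cd68, Glb1, Grn, Gusb, Lamp2, Laptm5, Lipa, Man2b1, Psap and Smpd1. They had log2 differences of -0.092 to 1.59 with a median of 0.18, and of these Cd68 passed the test. Both sets of letters were chosen with the differences known, and a match in a window is a description of its sequence.

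Of the 3 soluble cofactors 0 passed (limma; 1 had an unadjusted p under 0.05). Grn encodes progranulin, a secreted and lysosomal glycoprotein that is split into granulins and keeps microglial lysosomes working. It gave 9.72, 10.27 and 9.85 on stroke arrays and 9.08, 9.53 and 9.29 on control arrays. Each stroke array exceeded the highest control array, with replicate 2 the brightest in both groups. The log2 difference was 0.64 (1.56-fold, 95% interval 0.21 to 1.08, adjusted p = 0.474). Grn lies on chromosome 11 at 102430507 to 102436809.

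Psap, the precursor of the saposins that present sphingolipids to their hydrolases, gave 10.99, 11.94 and 11.24 in stroke and 11.06, 11.75 and 11.12 in control. The groups overlapped and replicate 2 was high in both. The log2 difference was 0.078 with a wide interval of -0.56 to 0.72. Npc2, which hands cholesterol to NPC1 inside the lysosome, gave 9.37, 9.17 and 9.25 in stroke and 9.48, 9.08 and 9.07 in control, a difference of 0.056. The highest value of Npc2 was on a control array.

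Among the 13 hydrolases 0 passed (limma; 1 had an unadjusted p under 0.05), 9 had a difference above 0 and 4 below, and the class median was 0.089. Without both arrays numbered 2 the median was -0.025, and without control replicate 2 alone it was 0.0027. Gusb, the beta-glucuronidase that removes glucuronic acid from glycosaminoglycans, gave 8.01, 7.63 and 7.88 on stroke arrays and 7.35, 7.02 and 7.49 on control arrays. The groups did not overlap, and the log2 difference was 0.55 (1.47-fold, 95% interval 0.15 to 0.95, adjusted p = 0.553). Gusb lies on chromosome 5 at 129989011 to 130003049. Its difference kept its sign without each array in turn, at 0.42 to 0.66.

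Tpp1, a peptidase that removes tripeptides from the ends of proteins, gave 9.43, 9.93 and 9.48 in stroke and 9.29, 9.49 and 9.38 in control. Its log2 difference of 0.23 (95% interval -0.16 to 0.61) was 0.12 without both arrays numbered 2. Lipa, the acid lipase that splits cholesteryl esters and triglycerides, gave 8.65, 8.50 and 8.60 in stroke and 8.47, 8.22 and 8.52 in control. The lowest stroke array of Lipa fell just under the highest control array, and the difference was 0.18 (95% interval -0.14 to 0.50). Arsb, the sulfatase that acts on dermatan and chondroitin sulfate, was singled out after its values were seen. It gave 9.80, 9.86 and 9.84 in stroke and 9.99, 9.95 and 10.02 in control, and although the groups did not overlap the log2 difference of -0.15 was small and did not pass (95% interval -0.43 to 0.12, adjusted p = 0.9998).

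The sphingolipid hydrolases overlapped between the groups and did not pass. Asah1, the acid ceramidase, averaged 7.91 ± 0.054 in stroke and 7.82 ± 0.23 in control. Smpd1, the acid sphingomyelinase, averaged 9.96 ± 0.10 and 9.87 ± 0.19 in stroke and control. Hexa, the alpha subunit of the hexosaminidase that degrades ganglioside GM2, averaged 8.90 ± 0.10 in stroke and 8.89 ± 0.26 in control. Galc, which degrades the myelin lipid galactosylceramide, averaged 7.20 ± 0.41 in stroke and 7.21 ± 0.46 in control. The spread of Galc came from replicate 2, which was the lowest array in both groups at 6.73 in stroke and 6.71 in control.

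The enzymes that act on sugars and on protein modifications also did not pass. Gaa, which breaks down glycogen, averaged 10.16 ± 0.30 in stroke and 10.07 ± 0.27 in control. Man2b1, a mannosidase, averaged 7.58 ± 0.32 and 7.53 ± 0.24 in stroke and control. For Neu1, the sialidase, the averages were 8.04 ± 0.13 in stroke and 8.08 ± 0.14 in control. Ppt1, which removes palmitate from proteins, averaged 9.58 ± 0.14 in stroke and 9.46 ± 0.072 in control. The cluster shared by Glb1, the beta-galactosidase, and Tmppe averaged 6.90 ± 0.034 in stroke and 6.95 ± 0.10 in control, tested among all clusters with a symbol, of which 0.355% rose and 0.00314% fell.

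No V-ATPase gene passed the test. Of the 8, 0 passed (limma; 0 had an unadjusted p under 0.05), 2 had a difference above 0 and 6 below, all 8 overlapped between groups, and the class median was -0.018. That median changed sign with single arrays left out, ranging from -0.044 without stroke replicate 2 to 0.040 without control replicate 2, and was -0.068 without both arrays numbered 2. No 95% interval in this class reached above 0.53 or below -0.66 on the log2 scale. Atp6v1a and Atp6v1b2, the A and B subunits that form the ATP-splitting head, averaged 11.10 ± 0.072 and 12.03 ± 0.071 in stroke and 11.07 ± 0.041 and 12.03 ± 0.11 in control. Their 95% intervals were -0.26 to 0.31 and -0.31 to 0.30. Atp6v1h, the regulatory H subunit of the head, averaged 9.26 ± 0.053 in stroke and 9.30 ± 0.13 in control.

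Within the membrane sector of the pump, Atp6v0a1, the a1 subunit that is prominent in neurons, gave 11.32, 10.85 and 11.43 in stroke and 11.54, 10.80 and 11.55 in control. Replicate 2 was the lowest array of both groups by more than the group difference of -0.092. Atp6v0d1, the widely expressed d subunit, averaged 11.17 ± 0.34 in stroke and 11.19 ± 0.22 in control. Its relative Atp6v0d2, known from osteoclasts and macrophages, gave 2.47, 2.73 and 2.56 in stroke and 2.63, 2.57 and 2.17 in control. These signals were under the median of every array, and no detection call was at hand. The accessory protein gene Atp6ap1 averaged 10.43 ± 0.42 in stroke and 10.45 ± 0.29 in control.

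Atp6v0c encodes the proton-carrying ring subunit and is reported with uncertainty, because a second cluster carries its symbol together with the pseudogene Atp6v0c-ps2. Its own cluster gave 6.67, 6.43 and 6.45 in stroke and 6.86, 6.66 and 6.53 in control, a difference of -0.16 (95% interval -0.50 to 0.18). The shared cluster averaged 11.53 ± 0.19 in stroke and 11.30 ± 0.14 in control, a difference of 0.23 (95% interval -0.12 to 0.58). The clusters thus differed in sign, and neither passed. Tfeb gave 5.71, 5.78 and 5.58 in stroke and 5.71, 5.48 and 5.45 in control. The groups overlapped, and its difference of 0.14 (95% interval -0.17 to 0.46) did not pass.

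Much of the spread among arrays of a group was shared between the arrays numbered 2. In 14 of the 33 genes replicate 2 lay above the mean of replicates 1 and 3 in both groups, and in 10 it lay below in both, so that 24 genes deviated the same way. Over all genes the shares were 40.4% and 29.6%, and the same direction held for 70.0%, close to the 72.7% of the members. Psap was 0.82 and 0.65 above in stroke and control, Npc1 0.89 and 0.48 above, and Atp6ap1 0.69 and 0.41 above. Galc deviated by -0.72 and -0.76, and Atp6v0a1 by -0.53 and -0.75. These deviations were larger than the group difference of the same genes. For Cd68 they were 0.57 in stroke and 0.096 in control, well under its group difference.

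**Figure D3:**
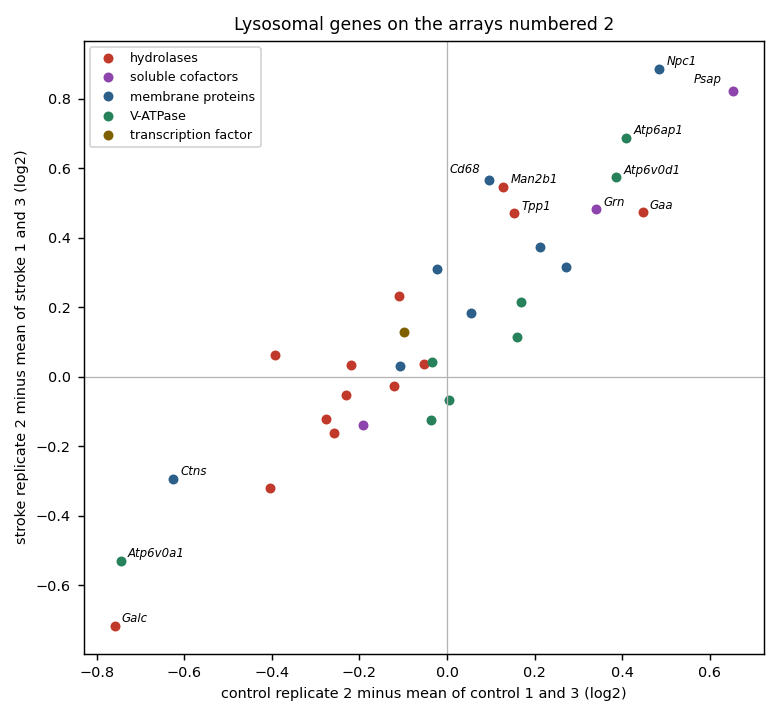
For each of the 33 genes, the log2 deviation of replicate 2 from the mean of replicates 1 and 3 in the stroke group (y axis) against the same in the control group (x axis), coloured by role. Points in the upper right (14 genes) and lower left (10 genes) deviated the same way in both groups, with Npc1 and Psap at one end and Galc at the other.

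Other lysosomal genes were taken from lists made by function. Of 96 such genes tested in 4 lists, 1 rose, 0 fell and 95 did not pass, with a median log2 difference of 0.089. The gene that rose was Cd63, a tetraspanin of late endosomes and lysosomes, at 8.45 ± 0.27 in stroke and 7.35 ± 0.14 in control (2.14-fold, adjusted p = 0.0499). It missed the threshold with the replicate number as a block (adjusted p = 0.0781) and without any single array (adjusted p of 0.106 to 0.191). Among 28 other membrane proteins, with a median of 0.078, or 0.018 without both arrays numbered 2, the next largest difference was that of Slc11a1 (NRAMP1), a metal transporter of phagosomes, at 0.62 (adjusted p = 0.481).

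Of 32 other hydrolases and luminal proteins 0 passed (limma; 2 had an unadjusted p under 0.05), with a median of 0.19. That median was 0.099 without both arrays numbered 2. The largest difference was that of Creg1, a secreted and lysosomal glycoprotein, at 0.52. Among 18 further V-ATPase genes 0 passed (limma; 2 had an unadjusted p under 0.05), with a median of 0.057, or 0.027 without both arrays numbered 2. There Atp6v1c2, a C subunit, differed by -0.38 and Atp6v0e, a small membrane sector subunit, by 0.32. Signal of Atp6v1c2 was near the array medians, at 5.09 ± 0.22 in stroke and 5.46 ± 0.14 in control. Of 18 genes of sorting and biogenesis 0 passed (limma, with 0 at an unadjusted p under 0.05). Their median was 0.044, or 0.024 without both arrays numbered 2. The relatives of Tfeb, Tfe3 and Tfec, each differed by 0.28, at unlike signal levels. Tfe3 averaged 9.34 ± 0.22 in stroke and 9.06 ± 0.25 in control. Tfec averaged 3.84 ± 0.14 in stroke and 3.56 ± 0.15 in control, under the median of every array, and is not shown to be above background.

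The cathepsins, the main lysosomal proteases, had a median of 0.40 over 14 genes, of which 1 rose and 13 did not pass (limma; 6 had an unadjusted p under 0.05). The cathepsin that rose was Ctsc, which activates serine proteases of granules, at 7.14 ± 0.12 in stroke and 5.62 ± 0.35 in control (2.87-fold, adjusted p = 0.0213). Without both arrays numbered 2 its adjusted p was 0.118.

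**Figure D4:**
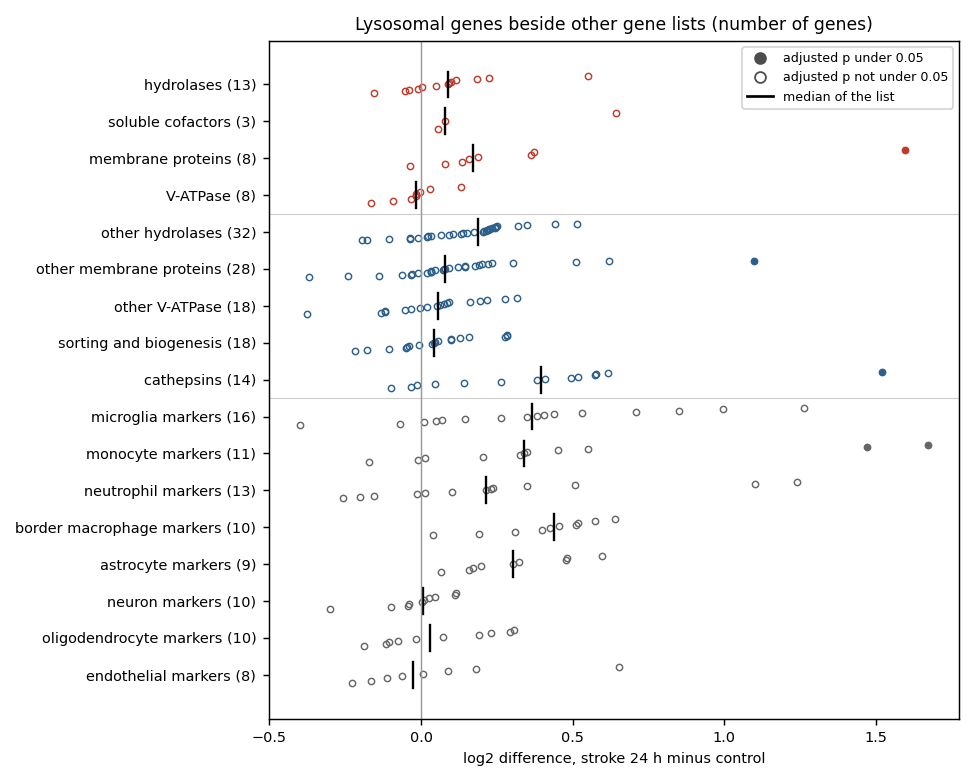
Log2 difference, stroke minus control (x axis), of every gene (points) in the lysosomal classes (red), the other lysosomal lists (blue) and the cell type marker lists (grey), with black bars at the list medians. Filled points passed the test. Cd68 stands apart from the other red points at 1.59, and the V-ATPase, neuron and oligodendrocyte medians lie near 0.

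The summed signal of the myeloid and astrocyte marker lists was higher on every stroke array than on any control array, as was Cd68. Such sums are weighted towards the brightest genes of a list. Every stroke array lay above every control array in 6 of 16 microglia markers and 4 of 13 neutrophil markers. In 1 marker of each of these lists every stroke array lay below. Over all genes the shares were 6.34% above and 4.89% below. Of 16 microglia markers 0 passed (limma; 7 had an unadjusted p under 0.05, and 2 passed with the replicate number as a block, C1qb and C1qc), with a median of 0.37, and their summed linear signal was 3709 to 4717 in stroke and 2277 to 3110 in control. Differences of 14 of these 16 were above 0, and the lowest was -0.40. Of 11 monocyte markers 2 rose, Vim and Cd44, neither of them restricted to monocytes, with a median of 0.34 and summed signal of 2187 to 3070 in stroke and 911 to 1458 in control. Without both arrays numbered 2 neither passed (adjusted p = 0.0824 for Vim and 0.0654 for Cd44). Differences of 9 of the 11 monocyte markers were above 0, and the lowest was -0.17. For 10 markers of border-associated macrophages the median was 0.44, 0 passed (7 at an unadjusted p under 0.05), and the sums were 569 to 615 in stroke and 419 to 446 in control. For 13 neutrophil markers it was 0.22, and 0 passed (3 at an unadjusted p under 0.05, 2 with the block, S100a8 and S100a9). The sums were 493 to 533 in stroke and 381 to 422 in control. Mean log2 signal of the neutrophil list was 4.94 to 4.96 on stroke arrays and 4.60 to 4.79 on control arrays. These means were under the median of every array. Differences of 9 of these 13 were above 0, and the lowest was -0.26.

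Of 9 astrocyte markers 0 passed (3 at an unadjusted p under 0.05), with a median of 0.30 and sums of 10791 to 12112 in stroke and 8784 to 9622 in control. The part of these cell types in the Cd68 result was not tested. Neuron markers (0 of 10 passed, 0 at an unadjusted p under 0.05, median 0.0073) and oligodendrocyte markers (0 of 10 passed, 1 unadjusted, median 0.028) overlapped between the groups in sum, at 32234 to 35090 in stroke and 32143 to 34945 in control for neurons, and at 18032 to 21559 in stroke and 17682 to 19702 in control for oligodendrocytes. Of 8 endothelial markers 0 passed (1 at an unadjusted p under 0.05, median -0.028), with sums of 411 to 730 in stroke and 409 to 574 in control. The medians of the neuron, oligodendrocyte and endothelial lists had the opposite sign without both arrays numbered 2, at -0.025, -0.00081 and 0.013.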

How the data were processed

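Ribosome-associated mRNA was measured on 3 stroke and 3 control arrays. The value table as deposited holds a log2 signal per transcript cluster and array, made by the authors with Transcriptome Analysis Console 3.0 per the series' design text, with annotation na36 on mm10 per the file headers. Methods of summarisation, normalization and testing: not given in the sources used here. Group averages in log2 units, a fold change (a signed score), a p-value and its false discovery rate come from the authors' deposited comparison table, which also pairs clusters with symbols. No columns of values were left out, and no detection calls were used.

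The 29971 clusters with a single symbol were reduced to 29458 genes by keeping the cluster of highest mean signal. Stroke was compared with control in limma 3.58.1 (R 4.3.3; lmFit, eBayes), calling genes at 0.05 after Benjamini-Hochberg adjustment over the 29458. Glb1 took its values from a second fit, over the 31873 clusters that carry any symbol. No filter on dim clusters was used. The code was run on simulated data with known changes. Those data held no deviation shared by arrays of the same number, so they do not test the fit under it. Where nothing says that samples came from separate animals, p-values measure the spread between these samples.

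The members, lists, motifs and alternatives were chosen with earlier results of these data known. Values of all arrays are given for members past the threshold and for the 3 largest absolute differences of each class, and of the other lysosomal lists the genes past the threshold and the 2 largest differences are named, except 1 gene that is not reported here. Alternatives covered the replicate block, scaling, dim filters, the variance model, the choice of cluster, the authors' table and leaving out arrays. Deviations of same-numbered stroke and control arrays from their group means correlated across genes at r = 0.299, 0.576 and 0.39. With unlike numbers, stroke 1 and control 3 gave 0.237, stroke 3 and control 1 gave 0.128, and the others gave -0.46 to -0.31. The numbers were treated as pairing the arrays in the blocked alternative, a choice made from these same data. The 3 deviations of a group sum to 0 and are not independent. No label says that a number marks a shared batch.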

Additional observations from a re-analysis of the deposited data

How the results depend on the processing

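Over 18 alternatives the count of lysosomal genes that fell was 0 throughout (limma), and the count that rose stayed at 1, except for 0 without moderation (6 members and 1841 genes had an unadjusted p under 0.05 there) and 0 to 1 when single arrays were left out. With the replicate number as a block 1 member rose (Cd68, adjusted p = 0.0192) and the call of no member changed. Over all genes, 124 higher genes became 214 with array weights, 70 without both arrays numbered 2, 0 without moderation and 25 to 73 without single arrays. The 1 lower gene became 3 with the block, 3 with array weights, 0 without moderation, 0 without both arrays numbered 2 and 0 to 1 without single arrays. Without single arrays the class medians were 0.12 to 0.31 for membrane proteins, 0.0027 to 0.14 for hydrolases, -0.014 to 0.30 for cofactors and -0.044 to 0.040 for the V-ATPase, the last 2 crossing 0. The causes were not tested, and fits without arrays have fewer samples. Of 591 member values, 57 in 19 genes had the opposite sign, none of them called, and no such gene differed by more than 0.14 in the fit of all arrays. With quantile normalization these were Hexa (-0.017), Man2b1 (-0.017) and Atp6v1b2 (0.0017), and with array weights Asah1 (-0.013), Galc (0.031) and Npc2 (-0.0062). Group averages in the authors' deposited table can differ from the array means. With that table the genes of opposite sign were Atp6v0d2 (-0.014), Atp6v1a (-0.014), Atp6v1h (0.014), Ctns (-0.043), Galc (0.16), Man2b1 (-0.14) and Npc1 (-0.15). Without both arrays numbered 2 they were Asah1 (-0.060), Atp6v1b2 (0.011), Ctns (-0.033), Hexa (-0.056) and Man2b1 (-0.089). Ranges without single arrays that crossed 0 were, for hydrolases, Asah1 -0.039 to 0.18, Gaa -0.060 to 0.25, Galc -0.26 to 0.23, Glb1 -0.093 to 0.0044, Hexa -0.073 to 0.15, Man2b1 -0.13 to 0.18 and Neu1 -0.11 to 0.028. For cofactors and membrane proteins they were Npc2 -0.014 to 0.19, Psap -0.20 to 0.30, Ctns -0.13 to 0.21, Mcoln1 -0.072 to 0.0054 and Npc1 -0.16 to 0.33. For the V-ATPase they were Atp6ap1 -0.25 to 0.16, Atp6v0a1 -0.34 to 0.084, Atp6v0d1 -0.21 to 0.11, Atp6v0d2 -0.011 to 0.22, Atp6v1a -0.013 to 0.051, Atp6v1b2 -0.062 to 0.049 and Atp6v1h -0.091 to 0.040. Both filters on dim clusters removed Atp6v0d2, and that at the median also removed Tfeb, so these have no value there. Clusters near the lower end of the signal range, such as that of Atp6v0d2, are not shown to be above background.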
